A study of Homo sapiens with 6 samples.

Results

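The genes described here are 34 genes of the unfolded protein response and of the linked ATF4 response, out of 29889 genes in the count table of A549 cells with and without CELF6 over-expression. They were chosen by symbol from general knowledge of these pathways, with earlier results of these data known, although the rule used no expression value. Counts and medians over these genes therefore carry no test. All 34 were found in the table and all 34 passed the filter on low counts. The A549 line comes from a human lung adenocarcinoma, and CELF6 is an RNA-binding protein of the CELF family that acts on splicing and mRNA stability. The over-expressing cells (CELF6-OE) carried the plasmid pIRES-hrGFP-1a with the CELF6 sequence, and the Control cells carried the empty plasmid. Both groups received Lipofectamine 2000 and were harvested 48 h after transfection, so transfection itself was shared by the 2 groups. Polyadenylated RNA was sequenced from 3 biological replicates of each group. The transfection was transient, there was no group without plasmid or reagent, and no agent that stresses the endoplasmic reticulum (ER) was used in either group.

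The ER folds secreted and membrane proteins, and when unfolded protein builds up there, 3 membrane sensors start the unfolded protein response. ERN1 (IRE1) splices the XBP1 mRNA, ATF6 is cut to release a transcription factor, and EIF2AK3 (PERK) phosphorylates eIF2, which lowers general translation but raises translation of ATF4. XBP1 and ATF6 induce ER chaperones and the machinery of ER-associated degradation, whereas ATF4 induces genes of amino acid synthesis and transport and the pro-apoptotic factor DDIT3 (CHOP). ATF4 is also reached by other eIF2 kinases, for example when amino acids are short, so that the 2 arms can move apart. Counts per gene show neither XBP1 splicing nor ATF4 translation, and the values below are mRNA levels only.

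Gene counts summed to between 33748328 and 35413404 in the CELF6-OE libraries and between 36422617 and 37920700 in the Control libraries. The CELF6-OE libraries, in the order of their replicate numbers here and below, had CELF6 FPKM values of 270, 295 and 172, and each Control library had 0 counts of it, where 3 counts would allow an FPKM of up to 0.0436. The epithelial marker list of A549 cells was present in full, 8 of 8 genes, with a summed FPKM between 7007 and 8414 in CELF6-OE and between 8812 and 9343 in Control. Of these 8 genes, KRT8, KRT18 and KRT19 were called lower in CELF6-OE, with log2 fold changes of -0.47, -0.36 and -0.22. The summed FPKM of leukocyte markers was between 3.62 and 4.89 in CELF6-OE and between 3.59 and 4.25 in Control (4 of 5 listed genes in the table). Most of it was CD14. PTPRC had 2 counts in Control replicate 1 and 0 in every other library. Fibroblast and endothelial markers, 3 genes each, summed to no more than 0.46 and 0.07 FPKM in any library. ITGAM of the leukocyte list and PECAM1 of the endothelial list were called lower. The part of the keratin and other marker differences in the results below was not tested.

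Of the 34 genes, 2 rose in CELF6-OE (5.88%) and 8 fell (23.5%), and 24 did not pass the test. A gene was called at a Benjamini-Hochberg adjusted p under 0.05 from the quasi-likelihood test of edgeR over all 15847 genes tested, of which 6.47% were called higher and 11.5% lower. The genes that rose were PSAT1 and MTHFD2, enzymes of serine synthesis and of mitochondrial folate metabolism. The genes that fell were XBP1, the ER chaperones and folding factors CALR, PDIA4, PDIA6 and CRELD2, the degradation factor DERL1, and CEBPB and VLDLR. The changes were small, from a fall of 0.59 on the log2 scale for XBP1 to a rise of 0.35 for PSAT1, and the median log2 fold change of the 34 genes was -0.12 against 0.011 over all genes tested. In bulk RNA, a difference in the make-up of the cells and a difference in RNA per cell cannot be told apart. The number of falls depended on single libraries of both groups, since it was 11 without Control replicate 1, 10 without Control replicate 3 and 6 without Control replicate 2, CELF6-OE replicate 1 or CELF6-OE replicate 2.

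A stricter rule asked for an unadjusted p under 0.01 together with a fold change of at least 1.5. It called 0 of the 34 genes higher and 1 lower, XBP1, against 1.36% and 5.91% of all genes tested. With the levels of each library compared directly, the lowest CELF6-OE library exceeded the highest Control library for 5 of the 34 genes and the reverse held for 14, against 17.9% and 20% of all genes tested, and the groups overlapped for 15. These levels are counts per 1000000 counts of a library (CPM), with library sizes scaled by TMM. CPM serves here to compare a gene between libraries and FPKM, which divides by transcript length, to compare levels between genes.

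**Figure D1:**
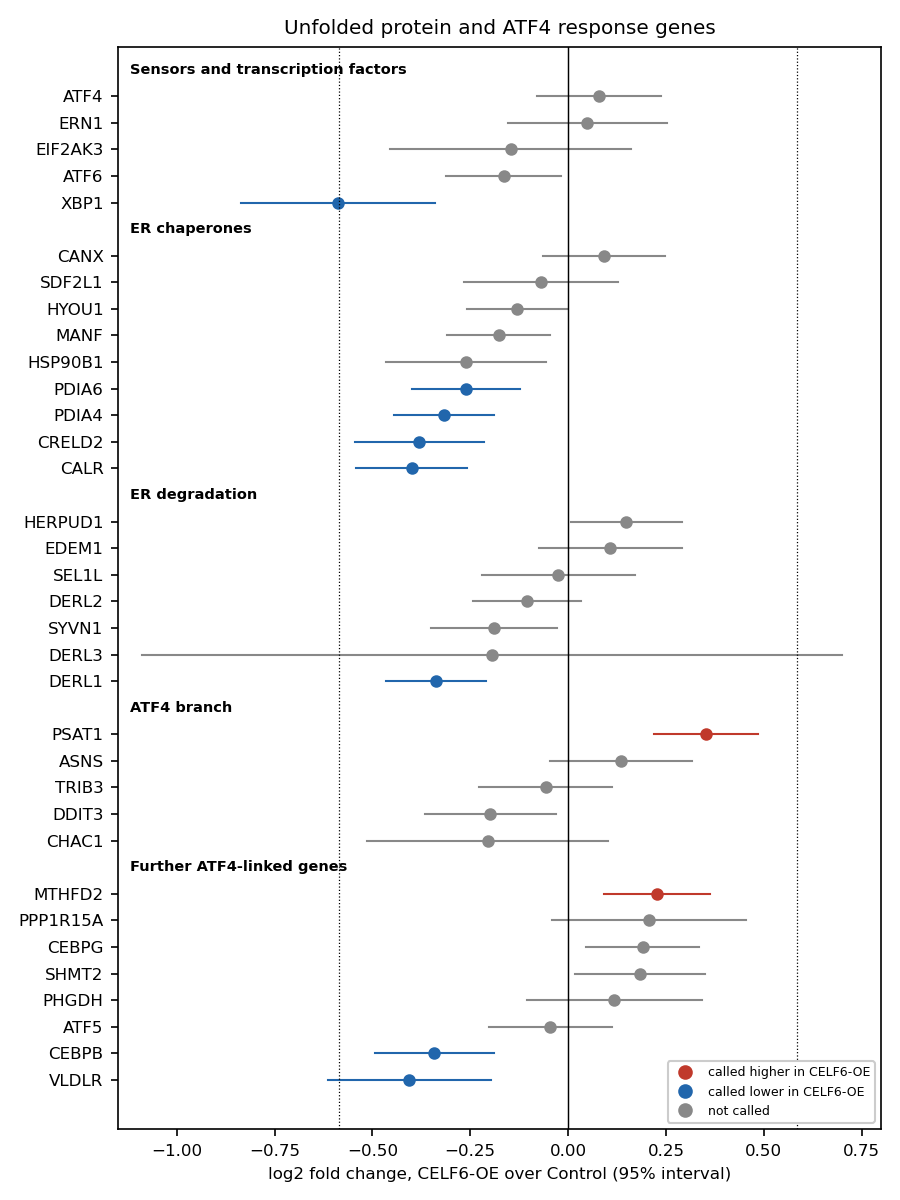
Log2 fold change of CELF6-OE over Control for the 34 genes in 5 groups by role, with the fitted value as a point, its 95% interval as a line and the 1.5-fold limits as dotted lines. Falls (blue) stand among the ER chaperones, with CALR at -0.40 and PDIA4 at -0.32, and XBP1 reaches -0.59. Other falls are DERL1 of ER degradation at -0.34, and VLDLR at -0.41 and CEBPB among the further ATF4-linked genes. PSAT1 at 0.35 and MTHFD2 at 0.23 are the 2 rises (red).

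Some of these genes hold known elements of the response in their promoters. Examples are printed here, from genes that passed the test (XBP1, CALR and CRELD2) and from genes that did not. The windows run from 250 bases before to 50 bases after the gene start in RefSeq (GRCh38.p14), and 31 of the 34 genes had one. Both strands were searched for 4 motifs: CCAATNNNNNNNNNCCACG, the ER stress response element (ERSE), ATTGGNCCACG (ERSE-II), TGACGTGG (UPRE), and TGATGNAA, the CARE element bound by ATF4 with a C/EBP partner. Each line gives 30 bases, 5′ to 3′ on the strand of the gene, with the motif in capitals, and motifs on the other strand appear as the reverse complement.
XBP1, ERSE: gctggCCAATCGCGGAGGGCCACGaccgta
CALR, ERSE: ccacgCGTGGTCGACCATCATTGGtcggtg
CRELD2, ERSE: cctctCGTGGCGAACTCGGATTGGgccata
HSP90B1, ERSE: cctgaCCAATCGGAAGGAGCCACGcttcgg
CANX, ERSE: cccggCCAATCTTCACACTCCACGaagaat
HERPUD1, ERSE-II: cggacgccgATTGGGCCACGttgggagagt
HERPUD1, CARE: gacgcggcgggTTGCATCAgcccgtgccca
ASNS, CARE: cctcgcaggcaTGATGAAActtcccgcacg
CHAC1, CARE: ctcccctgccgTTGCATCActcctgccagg

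In GRCh38 these windows lie at chr22:28800597-28800626 (minus strand, XBP1), chr19:12938379-12938408 (plus, CALR), chr22:49918549-49918578 (plus, CRELD2), chr12:103930211-103930240 (plus, HSP90B1), chr5:179698773-179698802 (plus, CANX), chr16:56932016-56932045 and chr16:56931955-56931984 (plus, HERPUD1), chr7:97872458-97872487 (minus, ASNS) and chr15:40953251-40953280 (plus, CHAC1). In the GENCODE v44 annotation the windows of CALR and HERPUD1 lie outside any gene and that of CRELD2 in an intron. The windows of XBP1, HSP90B1, CANX, ASNS and CHAC1 overlap an annotated untranslated region of the same gene (that of XBP1 by 1 base), since some transcripts start upstream of the RefSeq start used here. The ASNS window also lies within the span of a long non-coding RNA gene, and the HSP90B1 window overlaps an exon of the pseudogene TTC41P.

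An ERSE or ERSE-II was found in 8 of the 31 promoters (25.8%), against 37 of 27305 promoters in the table (0.136%). The holders were XBP1, CALR, CRELD2, HSP90B1, CANX, HYOU1, SDF2L1 and HERPUD1. Of these 8 genes, XBP1, CALR and CRELD2 fell and the other 5 did not pass the test, with log2 fold changes from -0.26 in HSP90B1 to 0.15 in HERPUD1. CARE was found in 3 of the 31 promoters (9.68%), ASNS, CHAC1 and HERPUD1, against 3.67% of all promoters, and none of these 3 genes passed the test. UPRE was found in HYOU1 alone, where it overlaps the distal of its 2 ERSE-II copies, against 0.795% of all promoters. None of the 4 motifs was found for the other called genes, PSAT1, MTHFD2, PDIA4, PDIA6, DERL1, CEBPB and VLDLR. A promoter window was missing for 3 of the 34 genes. These are matches of letters in a window and not measured binding. The genes were chosen as members of this response, so the shares describe the list and were not tested.

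Among the 5 sensors and transcription factors, XBP1 fell (20%, against 11.5% of all genes tested) and the other 4 did not pass the test. XBP1 (chr22:28794555-28800597, minus strand), the transcription factor made active by IRE1, had CPM values of 76.3, 59.0 and 80.8 in CELF6-OE and 119, 109.9 and 96.4 in Control. Every CELF6-OE library lay below every Control library, and CELF6-OE replicate 2 was the lowest. XBP1 fell by 33.5%, a log2 fold change of -0.59 ± 0.11 (SE, n = 3 per group, edgeR adjusted p = 0.00478), and stayed past the threshold in all 17 refits with other settings or without a library. This value lies at the 1.5-fold limit (0.585 on the log2 scale), which was not reached without CELF6-OE replicate 2 (-0.47), Control replicate 1 (-0.53) or Control replicate 2 (-0.58), with library size only (-0.55), with the upper quartile (-0.57) or on the FPKM scales (-0.55 and -0.56). Its mean FPKM was 34.2 ± 5.25 in CELF6-OE and 50.5 ± 6.59 in Control (SD, n = 3).

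ATF4 (chr22:39519695-39522683, plus strand), the transcription factor of the other arm, was a highly expressed gene with a mean FPKM of 193 ± 3.43 in CELF6-OE and 179 ± 10.5 in Control (SD, n = 3). Its CPM values were 510.0, 486 and 507 in CELF6-OE and 429, 488 and 507 in Control. Control replicate 1 was the lowest library and the others lay close together, so the groups overlapped by CPM, although by FPKM each CELF6-OE library exceeded each Control library. The log2 fold change was 0.079, with a 95% interval of -0.079 to 0.24 (edgeR adjusted p = 0.48).

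The 3 sensors of the ER membrane were expressed at low levels, with mean Control FPKM values of 5.13 for ATF6, 1.97 for EIF2AK3 and 1.13 for ERN1. ATF6 had CPM values of 36.2, 35.3 and 36.8 in CELF6-OE and 41.5, 41.2 and 38.8 in Control. The ATF6 groups did not overlap, but the log2 fold change of -0.17 did not pass the test (edgeR adjusted p = 0.11), and it did so only when Control replicate 3 was left out, among the refits run (-0.19, edgeR adjusted p = 0.0482). EIF2AK3 had CPM values of 8.88, 8.06 and 10.2 in CELF6-OE and 11.6, 10.2 and 8.12 in Control. ERN1 had CPM values of 12.1, 12.0 and 12.2 in CELF6-OE and 12.2, 12.1 and 10.8 in Control. Both of these genes had overlapping groups, and their log2 fold changes were -0.15 with a 95% interval of -0.46 to 0.16 for EIF2AK3 and 0.049 with an interval of -0.15 to 0.25 for ERN1.

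**Figure D2:**
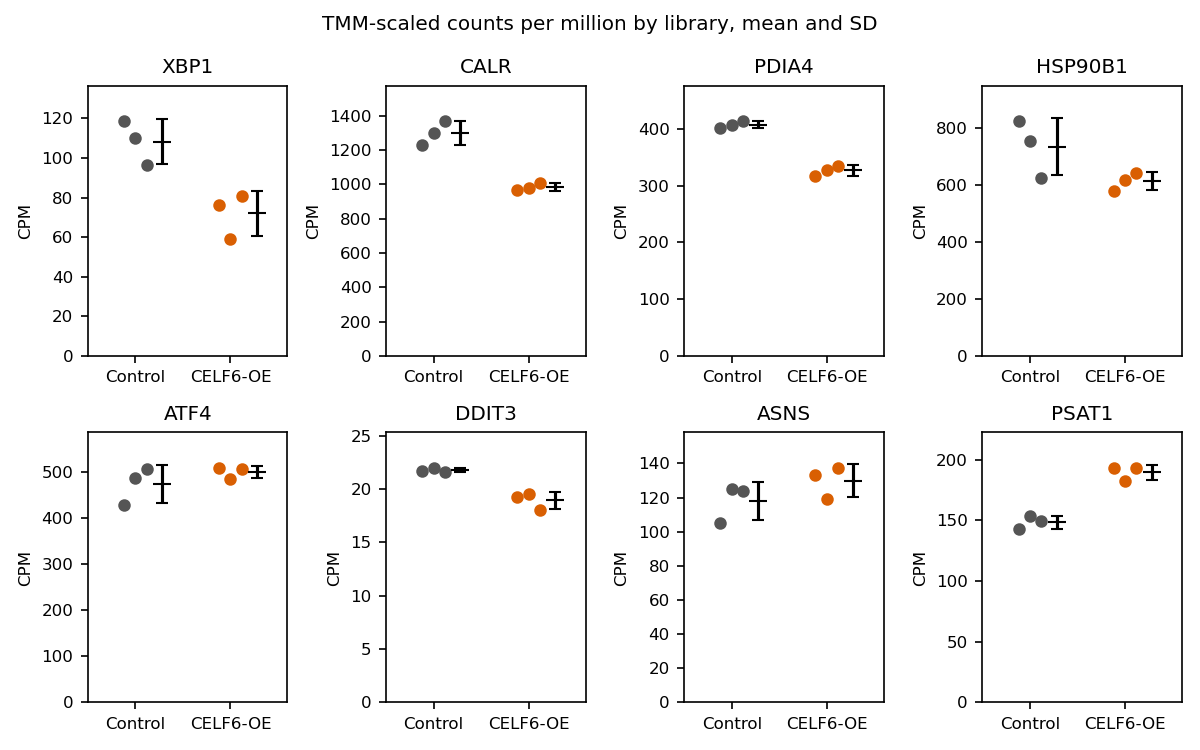
TMM-scaled CPM in each Control (grey) and CELF6-OE (orange) library for 8 genes, with the group mean as a horizontal mark and the SD as a bar (n = 3 per group). The groups are separate for XBP1, CALR, PDIA4 and DDIT3 (CELF6-OE lower) and for PSAT1 (CELF6-OE higher), and they overlap for HSP90B1, ATF4 and ASNS.

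The ER chaperones and folding enzymes, 9 genes, held 4 falls (44.4%, against 11.5% of all genes tested) and no rise. Their median log2 fold change was -0.26. CALR (calreticulin, chr19:12938578-12944489, plus strand), a calcium-binding chaperone of glycoproteins, had the highest level of all 34 genes, with a mean FPKM of 501 ± 13.7 in CELF6-OE and 647 ± 16.9 in Control (SD, n = 3). Its CPM values were 964, 980.3 and 1008 in CELF6-OE and 1228, 1301 and 1367 in Control. The groups were far apart compared with the spread within each. CALR fell by 24.2%, a log2 fold change of -0.40 ± 0.064 (SE, edgeR adjusted p = 0.00167). Its membrane-bound relative calnexin, CANX, had a log2 fold change of 0.092 (95% interval -0.064 to 0.25, edgeR adjusted p = 0.40) and overlapping groups.

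The protein disulfide isomerases form and rearrange disulfide bonds in the ER. PDIA4 (chr7:149003062-149028662, minus strand) had CPM values of 317, 328 and 335 in CELF6-OE and 401, 407 and 413 in Control, and PDIA6 (chr2:10783391-10837977, minus strand) had 510.4, 517 and 548 against 645, 644 and 601. Neither gene had overlapping groups, and the gap was wider for PDIA4. PDIA4 fell by 0.32 ± 0.058 on the log2 scale (SE, edgeR adjusted p = 0.00348) and PDIA6 by 0.26 ± 0.062 (edgeR adjusted p = 0.0154). The call of PDIA6 was lost without CELF6-OE replicate 1 (edgeR adjusted p = 0.0831), without CELF6-OE replicate 2 (0.0692), without Control replicate 2 (0.104) and with the replicate number as a block (0.0561), whereas that of PDIA4 held in all 17 refits.

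CRELD2 (chr22:49918167-49927540, plus strand), a secreted ER stress-inducible factor, had CPM values of 32.8, 31.8 and 33.5 in CELF6-OE and 39.0, 43.6 and 45.1 in Control. The groups were separate, and CRELD2 fell by 0.38 ± 0.075 on the log2 scale (SE, edgeR adjusted p = 0.00563). HSP90B1 (GRP94, chr12:103930107-103953931, plus strand), the HSP90 chaperone of the ER, had CPM values of 579.9, 618 and 644 in CELF6-OE and 825, 756 and 627 in Control. Control replicate 3 lay within the CELF6-OE range, so the groups overlapped. The log2 fold change of HSP90B1 was -0.26 ± 0.093 and did not pass the test (SE, edgeR adjusted p = 0.077), but it passed in 3 of the 17 refits. These were the fit without Control replicate 3 (-0.36, edgeR adjusted p = 0.00282), the fit without the filter on low counts (-0.27, edgeR adjusted p = 0.00147) and DESeq2 (-0.26, DESeq2 adjusted p = 0.0478).

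SDF2L1, a partner of the ER chaperone HSPA5, had CPM values of 57.7, 51.6 and 58.0 in CELF6-OE and 51.5, 58.8 and 65.3 in Control. The groups overlapped and the log2 fold change was -0.069 (95% interval -0.27 to 0.13). For MANF, a small secreted ER factor, and HYOU1, an HSP70-type chaperone, the groups were separate with CELF6-OE lower, but neither passed the test. Their log2 fold changes were -0.18 and -0.13, with edgeR adjusted p of 0.064 and 0.14, and MANF passed only without Control replicate 1 (-0.21, edgeR adjusted p = 0.0236) among the refits run.

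The 7 genes of ER-associated degradation held 1 fall (14.3%, against 11.5% of all genes tested) and no rise. Their median log2 fold change was -0.10. DERL1 (chr8:123013170-123042302, minus strand), a membrane protein of the channel through which misfolded proteins leave the ER, had CPM values of 84.3, 84.4 and 87.3 in CELF6-OE and 105, 110.5 and 108 in Control. The CELF6-OE libraries lay close together and below all Control libraries, and DERL1 fell by 0.34 ± 0.058 on the log2 scale (SE, edgeR adjusted p = 0.00255). Its relative DERL2 had a log2 fold change of -0.10 (edgeR adjusted p = 0.27). DERL3 was nearly absent, with 6 to 16 counts per library and a 95% interval of -1.09 to 0.70.

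HERPUD1, an ER membrane protein that gathers the degradation complex, had higher levels in CELF6-OE, with CPM values of 58.6, 55.1 and 55.1 in CELF6-OE and 50.1, 49.5 and 52.7 in Control. The CELF6-OE values exceeded the Control values throughout, but the log2 fold change of 0.15 did not pass the test (edgeR adjusted p = 0.13). SYVN1 (HRD1), the ubiquitin ligase of the complex, had -0.19 (edgeR adjusted p = 0.097) and passed only without Control replicate 1 (-0.23, edgeR adjusted p = 0.029) among the refits run. SEL1L, the adaptor of SYVN1, had -0.025 and EDEM1, which marks glycoproteins for degradation, 0.11, both with overlapping groups and edgeR adjusted p of 0.87 and 0.40.

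The ATF4 branch comprised ASNS, TRIB3, CHAC1, PSAT1 and DDIT3. Of these 5 genes, 1 rose (20%) and none fell, against 6.47% higher and 11.5% lower among all genes tested. PSAT1 (phosphoserine aminotransferase, chr9:78297125-78330093, plus strand), an enzyme of serine synthesis, had CPM values of 193, 182 and 193 in CELF6-OE and 143, 154 and 149 in Control. The lowest CELF6-OE library lay well above the highest Control library. PSAT1 rose by 27.6%, a log2 fold change of 0.35 ± 0.060 (SE, edgeR adjusted p = 0.00241), and passed in all 17 refits. Its mean FPKM was 83.9 ± 2.13 in CELF6-OE and 64.4 ± 1.67 in Control (SD, n = 3).

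ASNS (asparagine synthetase, chr7:97851677-97872542, minus strand) makes asparagine and carries the CARE element printed above. Its CPM values were 133, 119 and 138 in CELF6-OE and 105, 125 and 124 in Control. Control replicate 1 was the lowest, CELF6-OE replicate 2 lay among the Control values, and the log2 fold change was 0.14 with a 95% interval of -0.045 to 0.32 (edgeR adjusted p = 0.28). TRIB3 (chr20:362835-397559, plus strand), a pseudokinase that restrains ATF4, had CPM values of 109, 105 and 108 in CELF6-OE and 99.2, 113 and 123 in Control. All CELF6-OE libraries of TRIB3 fell within the range of the Control libraries, and the log2 fold change was -0.057 with an interval of -0.23 to 0.11 (edgeR adjusted p = 0.64).

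DDIT3 (CHOP, chr12:57516588-57521737, minus strand) had CPM values of 19.3, 19.5 and 18.1 in CELF6-OE and 21.7, 22.0 and 21.6 in Control. The groups were separate with CELF6-OE lower, but the log2 fold change of -0.20 (95% interval -0.37 to -0.032) did not pass the test after adjustment over all genes (edgeR adjusted p = 0.094). One end of DDIT3 overlaps the synthetase gene MARS (chr12:57475445-57517569, plus strand). Whether strand was used in counting is not known, so DDIT3 counts may include reads of MARS. CHAC1 (chr15:40952962-40956512, plus strand), which degrades glutathione, had CPM values of 7.93, 8.84 and 9.13 in CELF6-OE and 7.91, 10.2 and 11.7 in Control. The CHAC1 groups overlapped through Control replicate 1. The log2 fold change of CHAC1 was -0.21 with an interval of -0.51 to 0.10 (edgeR adjusted p = 0.34), and without Control replicate 1 it was -0.36 (edgeR adjusted p = 0.0286).

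**Figure D3:**
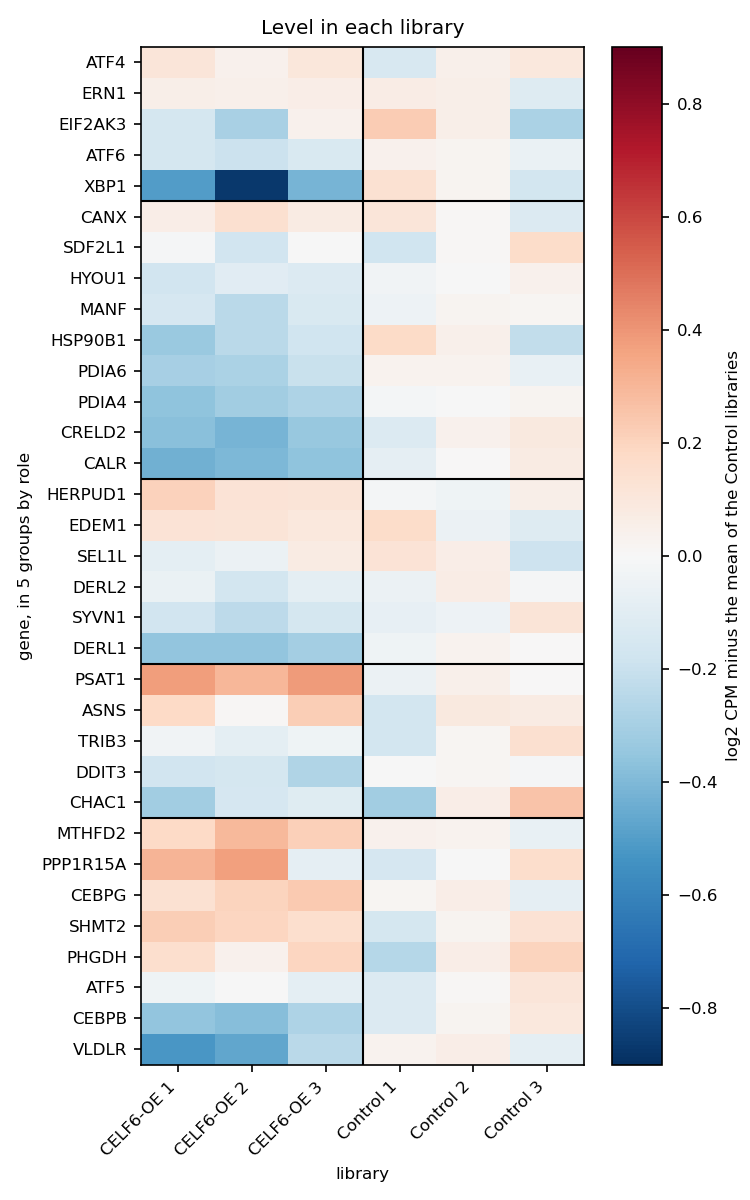
Log2 CPM of each gene in each library minus the mean of the 3 Control libraries, in 5 groups by role (top to bottom: sensors and transcription factors, ER chaperones, ER degradation, ATF4 branch, further ATF4-linked genes). Blue fills the CELF6-OE columns for XBP1, CALR, CRELD2, PDIA4, DERL1 and CEBPB, red does so for PSAT1 and MTHFD2, and Control replicates 1 and 3 differ from each other in HSP90B1, CHAC1 and PHGDH. DERL3, with 6 to 16 counts per library, is left out.

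The 2 branches were then set side by side. The ATF4 branch had a median log2 fold change of -0.057 over its 5 genes. The ER chaperone and degradation branch had -0.18 over its 16 genes, of which 5 fell (31.2%, against 11.5% of all genes tested) and none rose. Within single libraries, the median of the ER branch relative to the Control mean of each gene was -0.17, -0.20 and -0.13 in CELF6-OE. It was -0.034, 0.012 and 0.019 in Control, so that its groups did not overlap. The 9 chaperones alone had -0.30, -0.24 and -0.18 in CELF6-OE and -0.030, 0.013 and 0.022 in Control, without overlap. The 7 degradation genes alone had -0.085, -0.13 and 0.075 in CELF6-OE and -0.038, -0.037 and 0.0018 in Control, and these groups overlapped. The same median of the ATF4 branch was -0.031, -0.085 and -0.040 in CELF6-OE and -0.16, 0.049 and 0.074 in Control, and these groups overlapped through Control replicate 1. The difference of the branches, ATF4 minus ER, was 0.14, 0.12 and 0.089 in CELF6-OE and -0.13, 0.037 and 0.055 in Control. These medians are descriptions and were not tested. The ATF4 branch was not of one direction, since PSAT1 at 0.35 and CHAC1 at -0.21 stood at its ends, and its median was 0.017 without Control replicate 3 and -0.14 without Control replicate 1.

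**Figure D4:**
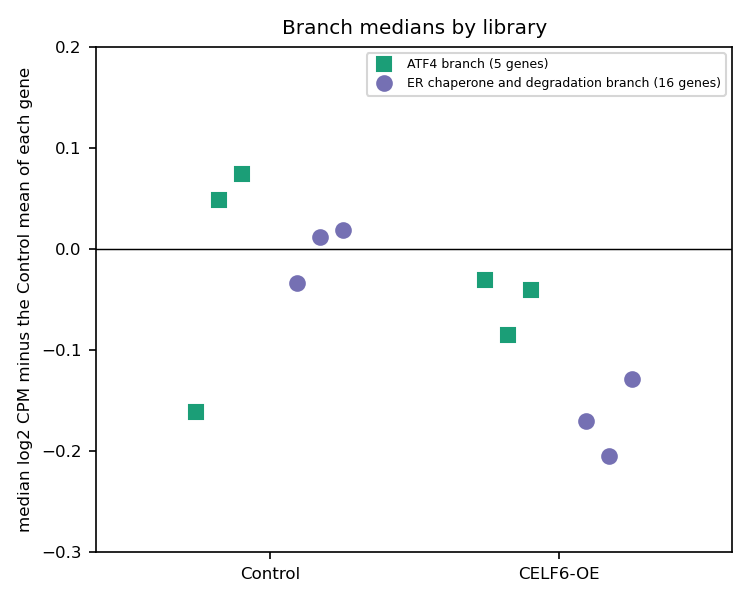
Median over the genes of each branch of log2 CPM minus the Control mean of the gene, 1 point per library, for the ATF4 branch (5 genes, squares) and the ER chaperone and degradation branch (16 genes, circles). The CELF6-OE circles, at -0.20 to -0.13, lie below all Control circles, whereas the CELF6-OE squares lie within the range of the Control squares.

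The 8 further genes linked to ATF4 held 1 rise (12.5%) and 2 falls (25%), against 6.47% and 11.5% of all genes tested. Their median log2 fold change was 0.15. MTHFD2 (chr2:74186172-74217565, plus strand), a mitochondrial enzyme of folate metabolism, had CPM values of 255, 275 and 262 in CELF6-OE and 231, 231 and 215 in Control. The groups were separate, and MTHFD2 rose by 0.23 ± 0.062 on the log2 scale (SE, edgeR adjusted p = 0.0283). This call was lost in 5 of the 17 refits, namely without any one CELF6-OE library (edgeR adjusted p = 0.0636, 0.132 and 0.0767 without replicates 1, 2 and 3), without Control replicate 2 (0.104) and with the replicate number as a block (0.0757).

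The other serine and glycine enzymes, SHMT2 and PHGDH, had log2 fold changes of 0.18 and 0.12 and did not pass the test (edgeR adjusted p = 0.12 and 0.45). SHMT2 passed in 4 of the 17 refits, without Control replicate 3 (0.25, edgeR adjusted p = 0.0216), with library size only (0.22, edgeR adjusted p = 0.0344) and on both FPKM scales (0.21 and 0.22, limma adjusted p = 0.0428 and 0.0426). The PHGDH values in Control ranged from 61.6 CPM in replicate 1 to 84.4 CPM in replicate 3, a wider range than in CELF6-OE, which ran from 75.6 to 84.1. PPP1R15A (GADD34), the phosphatase subunit that reverses eIF2 phosphorylation, had CPM values of 109, 114 and 83.4 in CELF6-OE and 79.1, 87.9 and 98.0 in Control. CELF6-OE replicate 3, the library with the lowest CELF6 level, lay within the Control range. The log2 fold change of PPP1R15A was 0.21 (edgeR adjusted p = 0.23) with all libraries and 0.33 (edgeR adjusted p = 0.0456) without that one. A relation of PPP1R15A to the CELF6 level was not tested.

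CEBPB (chr20:50190830-50192668, plus strand), a C/EBP transcription factor that pairs with ATF4, had CPM values of 237, 232 and 249.6 in CELF6-OE and 279, 309 and 323 in Control. The groups were separate, and CEBPB fell by 0.34 ± 0.069 on the log2 scale (SE, edgeR adjusted p = 0.00657). CEBPG, another C/EBP partner of ATF4, had a log2 fold change of 0.19, with separate groups and CELF6-OE higher, but did not pass the test (edgeR adjusted p = 0.067), and it passed in 2 of the 17 refits, those with library size only and with the upper quartile. ATF5, a transcription factor related to ATF4, had -0.046 (edgeR adjusted p = 0.69). VLDLR (chr9:2621182-2660056, plus strand), a lipoprotein receptor, had CPM values of 14.7, 15.3 and 17.9 in CELF6-OE and 21.6, 22.1 and 19.9 in Control and fell by 0.41 ± 0.095 (SE, edgeR adjusted p = 0.0138). The gap between the VLDLR groups was narrow, and the call was lost without CELF6-OE replicate 1 (edgeR adjusted p = 0.08), CELF6-OE replicate 2 (0.0687) or Control replicate 2 (0.0832) and on the FPKM scale.

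The other genes of the pathway were taken from 6 wider lists with 141 genes in the table, of which 140 were tested, 7 rose (5%) and 27 fell (19.3%), against 6.47% and 11.5% of all genes tested. The rises numbered 2 without CELF6-OE replicate 1, CELF6-OE replicate 2 or Control replicate 2, 4 without CELF6-OE replicate 3, 13 without Control replicate 3 and 17 without Control replicate 1. The falls numbered 14 without CELF6-OE replicate 1 or 2 and 13 without Control replicate 2. Among 27 further ER chaperones and folding enzymes, 10 fell and none rose, a share of 37% against 11.5% of all genes tested. The median log2 fold change of this list was -0.18. SELENOM, an ER selenoprotein, fell by 0.54 ± 0.097 (SE, edgeR adjusted p = 0.00323), SIL1, the nucleotide exchange factor of HSPA5, by 0.49 ± 0.070 (edgeR adjusted p = 0.00079), and FKBP11, a prolyl isomerase, by 0.47 ± 0.072 (edgeR adjusted p = 0.00122). The CPM of SIL1 was 34.6 ± 1.75 in CELF6-OE and 48.4 ± 1.75 in Control (SD, n = 3). The other 7 were PDIA3, PDIA5, P4HB, ERP44, PPIB, SDF4 and QSOX1, with falls of 0.24 to 0.39.

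HSPA5 (BiP), the main HSP70 chaperone of the ER and the usual marker of the response, had CPM values of 583, 605 and 618 in CELF6-OE and 649.6, 676 and 635 in Control. The HSPA5 groups were separate by CPM with CELF6-OE lower, but the log2 fold change of -0.12 (95% interval -0.25 to 0.013) did not pass the test (edgeR adjusted p = 0.20). By FPKM the groups overlapped, with 150.3 in Control replicate 3 against 151.39 and 152.93 in CELF6-OE replicates 2 and 3. DNAJB9 (ERdj4), a target of spliced XBP1, had a log2 fold change of 0.010, with an interval of -0.30 to 0.32.

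Of 25 further genes of ER-associated degradation, 1 rose (4%) and 3 fell (12%), against 6.47% and 11.5% of all genes tested. The median log2 fold change was -0.0053. The falls were MAN1B1, a mannosidase that trims glycoproteins (-0.45), OS9, a lectin that reads the trimmed glycans (-0.32), and SELENOK (-0.24). The rise was UBE2J2, a ubiquitin-conjugating enzyme (0.22). The edgeR adjusted p of these 4 genes were 0.00101, 0.00258, 0.0462 and 0.0387. Of 21 genes of translocation and export, SSR4, a subunit of the translocon-associated protein complex (-0.29), and KDELR3, a receptor that retrieves ER proteins (-0.31), fell and none rose, a share of 9.52% lower (edgeR adjusted p = 0.0178 and 0.0248).

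**Figure D5:**
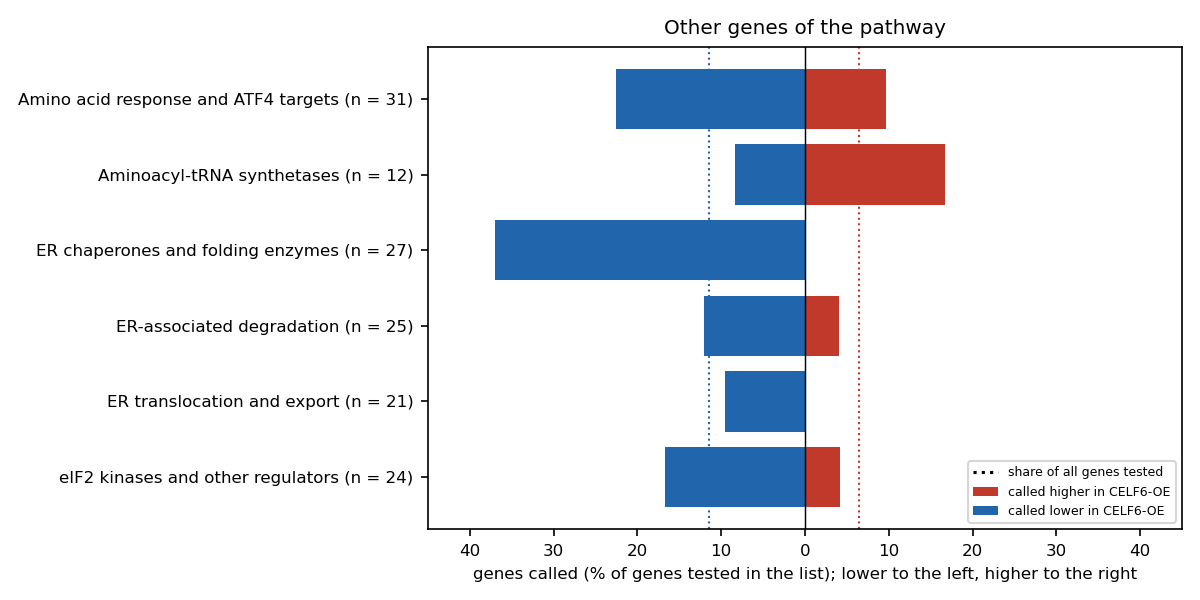
Share of the tested genes of 6 wider lists called lower (blue, to the left) and higher (red, to the right) in CELF6-OE, in percent, with the shares over all genes tested, 11.5% and 6.47%, as dotted lines. The list of ER chaperones and folding enzymes reaches 37% lower and 0 higher, and the aminoacyl-tRNA synthetases 8.33% lower and 16.7% higher.

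Among 31 tested genes of the amino acid response and other ATF4 targets, 3 rose (9.68%) and 7 fell (22.6%). The shares of all genes tested were 6.47% and 11.5%, and the median log2 fold change of the list was 0.021. The rises were SLC7A11, the cystine transporter (0.62 ± 0.10, SE, edgeR adjusted p = 0.0023), XPOT, a tRNA exporter (0.36, 0.0042), and SLC7A1, a transporter of cationic amino acids (0.23, 0.0346). SLC7A11 had CPM values of 97.5, 96.7 and 91.0 in CELF6-OE and 72.3, 62.5 and 51.2 in Control, so its groups were separate while its Control libraries varied more than the CELF6-OE libraries.

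The largest falls of this list were in NUPR1, a stress-induced chromatin protein, ATF3, a stress-induced transcription factor, and CTH, the cysteine-forming enzyme. NUPR1 had CPM values of 7.73, 7.12 and 7.32 in CELF6-OE and 14.2, 17.5 and 16.2 in Control and fell by 53.7%, a log2 fold change of -1.11 ± 0.11 (SE, edgeR adjusted p = 5.3e-05). ATF3 had CPM values of 8.70, 10.4 and 9.25 in CELF6-OE and 14.1, 14.6 and 14.4 in Control and fell by 34.2%, a log2 fold change of -0.60 ± 0.097 (SE, edgeR adjusted p = 0.00163). In both genes every CELF6-OE library lay below every Control library. CTH had a log2 fold change of -0.58 ± 0.18 (SE, edgeR adjusted p = 0.0461) and passed in 8 of the 17 refits.

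SESN2 and DDIT4, stress-induced inhibitors of mTORC1, also fell, by 0.43 and 0.37 on the log2 scale (edgeR adjusted p = 0.0054 and 0.0212), and SLC6A9, a glycine transporter, and GDF15, a stress-induced cytokine, fell by 0.46 and 0.29.

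Of 12 aminoacyl-tRNA synthetases, IARS (0.28) and LARS (0.26) rose, WARS (-0.66) fell and the median log2 fold change was 0.15. The shares were 16.7% higher and 8.33% lower, against 6.47% and 11.5% of all genes tested. WARS, which is also known as an interferon-induced gene, had CPM values of 154, 154 and 162 in CELF6-OE and 232, 258 and 254 in Control and fell by 36.9% (edgeR adjusted p = 5.8e-05). The 9 other synthetases did not pass the test. The edgeR adjusted p were 0.0113 for IARS and 0.0184 for LARS. Of 24 eIF2 kinases, eIF2 subunits and other regulators, 1 rose (4.17%) and 4 fell (16.7%), against 6.47% and 11.5% of all genes tested.

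The rise was EIF2S3, the gamma subunit of eIF2 (0.21, edgeR adjusted p = 0.03). The falls were CREB3L1, a transcription factor of the ATF6 type (-0.79, edgeR adjusted p = 0.0369), the pro-apoptotic genes BBC3 (-0.73, edgeR adjusted p = 0.00059) and BCL2L11 (-0.37, edgeR adjusted p = 0.0311), and the death receptor TNFRSF10B (-0.23, edgeR adjusted p = 0.0194). CREB3L1 was expressed at a low level, with a mean FPKM of 0.38 in CELF6-OE and 0.64 in Control. BBC3 and TNFRSF10B are targets of p53 as well as of DDIT3. EIF2AK2 (PKR), the eIF2 kinase activated by double-stranded RNA, had a log2 fold change of -0.17 (edgeR adjusted p = 0.17) with overlapping groups. MBTPS1, the protease that first cuts ATF6, had -0.038 (edgeR adjusted p = 0.70).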

How the data were processed

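Libraries of polyadenylated RNA were made from A549 cells that carried the CELF6 plasmid (CELF6-OE, n = 3) or its empty form (Control, n = 3). The methods call them biological replicates, and groups and replicate numbers were taken from the labels. The authors trimmed the reads, aligned them to GRCh38 with TopHat2 (named in the submitters' processing notes, without version) and used reads with a unique location. They deposited whole-number counts per gene (29889 genes) without normalization. They also deposited FPKM values per gene (29687 genes, 2 decimals). The library kit keeps strand. The tool that counted reads, whether it used strand, and the release of the annotation are not given in the sources used here, so reads of overlapping genes may be shared. Each of the 12 sample columns was used and 0 columns belonged to other samples.

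Counts were scaled with TMM and tested with glmQLFit and glmQLFTest in edgeR 4.0.16 (R 4.3.3) on the 15847 genes kept by filterByExpr (minimum count 10), with a prior count of 0.125 and Benjamini-Hochberg adjustment over those genes. The filter was kept in the main test because without it the prior degrees of freedom were infinite, against 7.15 with it. The biological coefficient of variation was 8.62%. The SE of a log2 fold change was derived from the fitted value and the F statistic of its test. Intervals are 95% intervals built from this SE, with the same t quantile for all genes (median degrees of freedom 11.1). An upper limit of 3 counts was given to a gene at 0 and covers counting error only. The procedure was tested on simulated counts with changes of 1.5-fold or more. Smaller changes, such as those of most called members here, were not simulated.

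The 34 members, the wider lists and the tests were chosen with earlier results of these data known, from general knowledge of the pathway, so list counts and medians carry no test. Values were given for every called member, the ATF4 branch, the sensors and 5 further members (PPP1R15A, HERPUD1, HSP90B1, CALR, SDF2L1). From each wider list, up to 3 called genes per direction with the largest change were named with values, plus HSPA5, DNAJB9, ATF3, SESN2, DDIT4, EIF2AK2 and MBTPS1. Other called list genes were named after their values were seen. Of 194 listed genes, 193 were matched to the table by symbol or identifier, 6 of them under older symbols, and coordinates are from GENCODE v44 (GRCh38). Values of 1 listed marker gene are not reported here. Promoters are from RefSeq (GRCh38.p14) and 31 of the 34 members had one.

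The 17 refits used RLE, upper-quartile or no further scaling, no filter, DESeq2 1.42.0, limma-voom and log2(FPKM + 1) or log2(FPKM + 0.1) in limma 3.58.1, CELF6 counts removed, a block for the replicate number, a prior count of 2, and each library left out in turn. Deviations of same-numbered libraries from their group means correlated at -0.074, -0.065 and -0.107 over 14698 genes, so the numbers were not taken as pairs. No 2 libraries of a group were duplicates (chi-square of counts per degree of freedom 8.02 to 31.4, the highest for Control replicates 1 and 3).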

Additional observations from a re-analysis of the deposited data

How the results depend on the processing

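PSAT1, XBP1, CALR, PDIA4, CRELD2, DERL1 and CEBPB kept their direction and passed in all 17 refits, PDIA6 passed in 13 and VLDLR and MTHFD2 in 12. Of the 34 calls in the wider lists, 15 passed in all 17 (NUPR1, ATF3, SESN2, SLC6A9, SLC7A11, XPOT, WARS, SIL1, FKBP11, SELENOM, ERP44, PDIA3, OS9, MAN1B1 and BBC3), and the others in 6 (SELENOK) to 15. Members called higher, 2 in the main test, numbered 4 with library size only, 1 with the replicate block, 0 under the stricter rule (p under 0.01 with a 1.5-fold difference), and 1 to 3 when single libraries were left out. Members called lower, 8 in the main test, numbered 1 under that rule and 6 to 11 when single libraries were left out. Genes of the wider lists called higher, 7 in the main test, numbered 13 with library size only, 11 with the upper quartile, 4 with the replicate block, 11 on each FPKM scale, 1 under the p and fold rule and 2 to 17 when single libraries were left out. Those called lower, 27 in the main test, numbered 5 under that rule and 13 to 31 when single libraries were left out. The median of the ER branch, -0.18, was -0.14 with library size only, -0.12 on both FPKM scales (-0.121 and -0.124) and -0.21 to -0.13 when single libraries were left out. Over all genes, calls without single libraries ran from 281 to 1906 higher and from 1032 to 2370 lower. With the replicate block, 720 genes were called higher and 1570 lower against 1025 and 1820, and no pair of replicate numbers deviated together. Directions turned for 7 members, none of which passed the test. When single libraries were left out, the log2 fold change ran from -0.14 to 0.017 for TRIB3, -0.16 to 0.017 for SDF2L1, -0.0072 to 0.077 for ERN1, -0.11 to 0.011 for ATF5, -0.0088 to 0.22 for PHGDH, -0.49 to 0.050 for DERL3 and -0.11 to 0.029 for SEL1L. The sign turned without Control replicate 3 for the first 4 of these, Control replicate 1 for PHGDH, CELF6-OE replicate 1 for DERL3, and CELF6-OE replicate 1 or Control replicates 1 or 2 for SEL1L. SEL1L was at 0.010 with library size only and at 0.0067 and 0.0091 on the FPKM scales. Apart from the fewer samples left in the fits without a library, the cause was not tested. With 3 libraries per group, a wide interval such as that of DERL3 does not show that a gene was unaltered.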

Other observations

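The largest upward values among list genes that did not pass the test, chosen after their values were seen, were those of TXNDC5, an ER thioredoxin-type protein (log2 fold change 0.54, 95% interval -0.13 to 1.21, edgeR adjusted p = 0.24), KLHL24 (0.50, interval -0.022 to 1.02, edgeR adjusted p = 0.17) and UBXN8, an ER membrane protein (0.31, edgeR adjusted p = 0.0576). TXNDC5 and KLHL24 were expressed at no more than 2.84 CPM in any library, and their groups overlapped. UBXN8 had CPM values of 15.3, 17.0 and 14.4 in CELF6-OE and 13.8, 12.0 and 11.9 in Control, with separate groups.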
